A study of Mus musculus with 6 samples.

Results

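The Bcl2 family is the group of proteins that decides at the mitochondrion whether a cell survives or dies by apoptosis. Its 10 members followed here were *Mcl1*, *Bcl2*, *Bcl2l1*, *Bax*, *Bak1*, *Bcl2l11*, *Bad*, *Bid*, *Pmaip1* and *Bbc3*, chosen by name as the entries of the deposited expression table with those gene symbols. They made up 10 of its 46959 entries, and 9 of them were among the 12955 genes expressed highly enough to be tested. The exception was *Pmaip1*, which stayed below the minimum level.

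RNA was sequenced from haematopoietic stem cells (HSCs) sorted from bone marrow of mice that lack *Maea* in *Csf1r*-Cre expressing cells (MaeaCsf1r-Cre) and of their control littermates, with 3 libraries in each group. MAEA is an E3 ubiquitin ligase, and the comparison addressed what its loss does to the HSC transcriptome. Each library came from 2000 HSCs pooled from 2 mice, which were 8 weeks old by the design text of the series, while the methods of the study give a wider range of young adult ages. The labels describe the control mice only as controls, without their alleles, and name no treatment for either group. *Csf1r*-Cre is driven by the promoter of the CSF1 receptor gene and deletes in macrophages and other haematopoietic cells as well as in HSCs, so other cells of the mutant marrow may lack *Maea* too. Values are CPM, the count of reads of a gene scaled to a library size common to all samples. In such bulk samples fewer cells of a type and less RNA per cell cannot be told apart, and the p-values measure the spread between pools of 2 mice.

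The family works through 3 kinds of protein. The pro-survival proteins MCL1, BCL2 and BCL-XL, the last encoded by *Bcl2l1*, bind and restrain the effectors BAX and BAK, which otherwise open the outer mitochondrial membrane and release cytochrome c. The BH3-only proteins, among them BIM (*Bcl2l11*), BAD, BID, NOXA (*Pmaip1*) and PUMA (*Bbc3*), sense stress or loss of growth factors and either block the pro-survival proteins or activate the effectors. MCL1 is a protein with a short life that HSCs and early progenitors are known to need.

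The promoters of 4 members are shown. These are *Mcl1*, whose groups did not overlap, and *Bax* and *Bak1*, which were higher in the mutant library of every pair. *Bcl2l11* is shown as a gene with a log2 fold change near 0, which *Bad* and *Bid* also had. The 4 were chosen after the values had been seen, and not by a fixed rule. Each sequence covers 250 bases before and 50 bases after a RefSeq transcription start on GRCm38.p6 and is written 5′ to 3′ along the gene's own strand. Capitals mark matches, on either strand, to an E-box (CACGTG), a GC box (GGGCGG), a cyclic AMP response half-site (TGACG), an ETS core (CCGGAA) or a FOXO site (TGTTTAC). None of these matches overlapped another.
*Mcl1*, chr3:95658471-95658770, plus strand: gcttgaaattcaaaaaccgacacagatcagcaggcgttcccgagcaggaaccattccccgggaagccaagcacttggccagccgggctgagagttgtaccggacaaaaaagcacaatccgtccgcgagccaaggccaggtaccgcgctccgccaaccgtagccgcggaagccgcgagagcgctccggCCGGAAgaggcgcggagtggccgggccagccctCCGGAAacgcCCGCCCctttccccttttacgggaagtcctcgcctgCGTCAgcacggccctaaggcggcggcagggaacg
*Bax*, chr7:45466849-45467148, minus strand: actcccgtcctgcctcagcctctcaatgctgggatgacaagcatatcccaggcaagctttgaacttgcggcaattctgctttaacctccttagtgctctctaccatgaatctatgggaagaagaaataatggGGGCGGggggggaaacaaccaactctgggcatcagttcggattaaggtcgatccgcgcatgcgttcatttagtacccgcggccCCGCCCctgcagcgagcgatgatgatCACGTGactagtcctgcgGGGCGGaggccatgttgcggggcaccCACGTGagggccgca
*Bak1*, chr17:27028578-27028877, minus strand: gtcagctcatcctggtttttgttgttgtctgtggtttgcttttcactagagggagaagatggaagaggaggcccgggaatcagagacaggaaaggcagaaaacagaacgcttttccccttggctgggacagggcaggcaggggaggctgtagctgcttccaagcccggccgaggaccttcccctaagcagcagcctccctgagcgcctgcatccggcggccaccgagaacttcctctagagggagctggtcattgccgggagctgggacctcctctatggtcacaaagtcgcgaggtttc
*Bcl2l11*, chr2:128125788-128126087, plus strand: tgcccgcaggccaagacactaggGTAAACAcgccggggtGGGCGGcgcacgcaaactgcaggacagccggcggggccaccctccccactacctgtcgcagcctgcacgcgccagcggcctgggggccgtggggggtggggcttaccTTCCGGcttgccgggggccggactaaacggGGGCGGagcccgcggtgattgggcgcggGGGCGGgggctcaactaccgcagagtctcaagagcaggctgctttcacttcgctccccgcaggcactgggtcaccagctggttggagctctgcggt

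The *Bax* window held 2 E-boxes and 3 GC boxes, and the *Mcl1* window held 2 ETS cores, 1 GC box and 1 cyclic AMP response half-site. The *Bcl2l11* window shown held 3 GC boxes, 1 ETS core and 1 FOXO site, while a second window of this gene, chr2:128127325-128127624, held 3 GC boxes and neither of the other 2. The *Bak1* window had none of the 5 motifs, but it lay wholly within the gene, which GENCODE starts at 27029009 on the minus strand. The sequence before that start was not searched. Among all 32851 RefSeq windows of this length, 7.15% held the E-box, 35.7% the GC box, 20.8% the half-site, 14.9% the ETS core and 3.65% the FOXO site. Windows were found for 9 of the 10 members, 15 windows in all, and a further FOXO site and a further E-box each lay in 1 window of *Bbc3*. The last bases of the *Mcl1* window were not part of a transcript in the GENCODE annotation, which starts this gene downstream of the window. A match says only that these letters are present.

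Control libraries had 32968000 to 39614000 reads and MaeaCsf1r-Cre libraries 44159000 to 60937000 reads behind their scaling. *Maea* itself was at 108, 116 and 123 CPM in control and 76.9, 88.6 and 101 CPM in MaeaCsf1r-Cre HSCs, so that the groups did not overlap (log2 fold change -0.39, SE 0.13, limma adjusted p = 0.967). The table gives 1 value per gene and does not separate deleted from remaining exons. The HSC markers *Kit*, *Ly6a* and *Slamf1* were present in every library, and the sum of 6 HSC markers ranged from 763 to 1098 CPM in control and from 546 to 895 CPM in MaeaCsf1r-Cre libraries. Control and MaeaCsf1r-Cre means were 608 and 468 CPM for *Kit*, 140 and 86.3 for *Hlf*, 58.3 and 40.1 for *Mecom* and 25.3 and 17.3 for *Procr*. *Ly6a* (65.7 and 77.6 CPM) and *Slamf1* (22.6 and 24.6 CPM) went the other way, and the groups of each of these markers overlapped. The sum of 8 macrophage markers ranged from 16.9 to 71.2 CPM and from 3.71 to 77.8 CPM. Of these, *C1qb* averaged 6.05 ± 2.66 CPM (SD, n = 3) in control and 0.169 ± 0.264 CPM in MaeaCsf1r-Cre HSCs. Granulocyte markers summed to 76.1 to 302 CPM and 75.8 to 164 CPM, erythroid markers to 32.0 to 102 CPM and 46.8 to 99.7 CPM, and megakaryocyte markers to 204 to 922 CPM and 271 to 561 CPM. T cell markers stayed at or below 0.0656 CPM in sum, and the B cell markers *Ms4a1* and *Pax5* were at 0 throughout, although *Cd79b* brought the B cell sum to 16.4 to 27.4 CPM and 13.1 to 24.2 CPM. The part of these markers in the results below was not tested.

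To see which members HSCs expressed most, levels were divided by transcript length, as CPM per kb of exon, and averaged over the 6 libraries. *Bax* and *Mcl1* led the family at 47.5 and 45.0 CPM per kb. Their ranges, 34.3 to 60.3 and 39.5 to 51.2, overlapped, and *Bax* lay above *Mcl1* in 3 of 6 libraries. *Bid* followed at 29.0 CPM per kb, with a range of 22.7 to 37.5 that lay wholly below that of *Mcl1* and wholly above that of *Bad*. *Bad* (10.2), *Bcl2l1* (8.78), *Bcl2* (5.55), *Bbc3* (4.34) and *Bak1* (3.94) formed a middle group in which each neighbour in the order overlapped the next. *Bcl2l11*, at 1.91 CPM per kb, lay below *Bak1* in every library, and *Pmaip1* was last at 0.103. The effectors thus stood apart, with *Bax* first and *Bak1* eighth among the members. All 10 members kept their place when the longest transcript was used as the length.

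**Figure D1:**
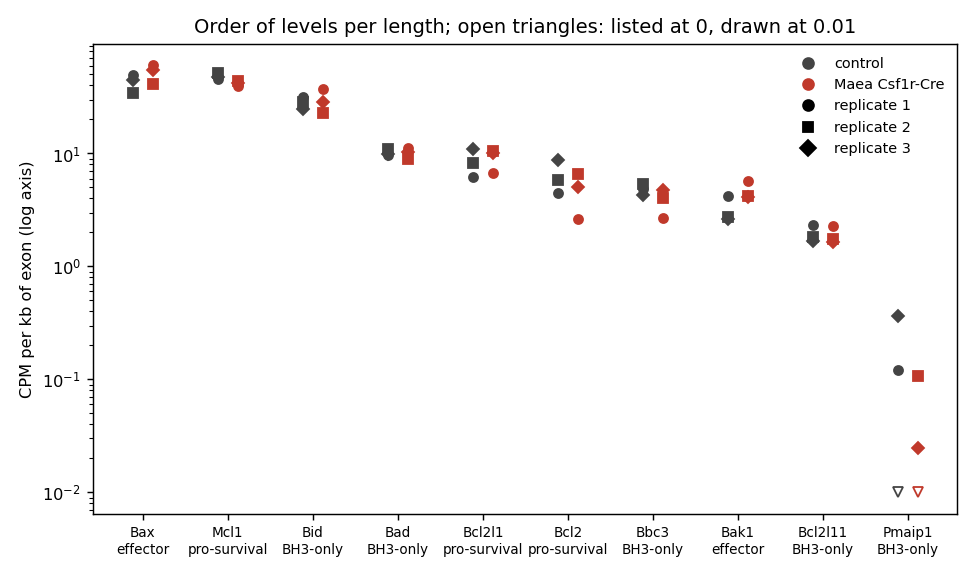
Level of each member per transcript length in the 6 libraries, in CPM per kb of exon on a log axis, with control libraries in grey, MaeaCsf1r-Cre libraries in red and a symbol for each replicate number. *Bax*, *Mcl1* and *Bid* sit above the rest, with means of 47.5, 45.0 and 29.0, and *Pmaip1* is near or at 0 (open triangles, listed at 0 and drawn at 0.01).

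None of the 9 members tested passed an adjusted p of 0.05 in limma between MaeaCsf1r-Cre and control HSCs, and 0 passed an unadjusted p of 0.05. Over all genes tested, 0.00772% passed the adjusted and 3.99% the unadjusted threshold. Higher mean values in MaeaCsf1r-Cre HSCs were found for 4 members and lower ones for 5, although rescaling by median ratios or by quantiles turned this into 6 and 3. The median log2 fold change of the members was -0.01, against -0.06 for all genes tested. By kind of protein the medians were -0.19 for the 3 pro-survival genes, 0.39 for the 2 effectors and -0.02 for the 4 BH3-only genes tested. Libraries with the same replicate number deviated together across genes, although the labels do not say what they share. With the number as a block 0 members passed the adjusted threshold (0.00772% of all genes). Without adjustment the blocked fit gave *Bax* and *Bak1* as higher, against 3.11% of all genes, and *Bcl2* as lower, against 10.8% of all genes.

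**Figure D2:**
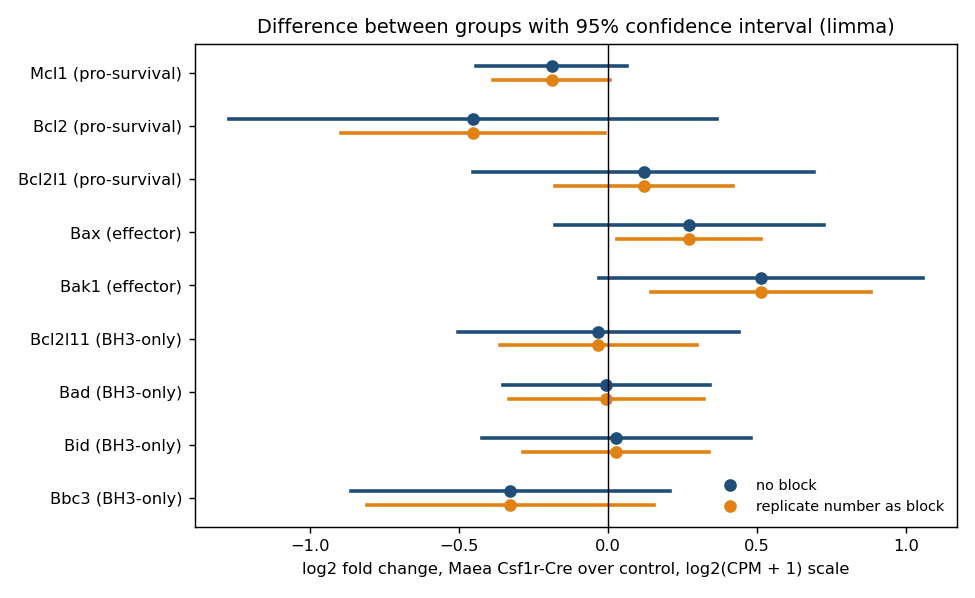
Log2 fold change of each tested member, MaeaCsf1r-Cre over control, on the log2(CPM + 1) scale, with its 95% confidence interval from limma without (blue) and with (orange) the replicate number as a block. Without the block all 9 intervals include 0, and with it those of *Bcl2*, *Bax* and *Bak1* do not, with no adjusted p below 0.266.

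Among the pro-survival genes, *Mcl1* (chromosome 3, bases 95658788 to 95663176 of GRCm38) had the highest level per length and the smallest coefficient of variation. It was at 156, 175 and 161 CPM in control and 135, 150.4 and 145 CPM in MaeaCsf1r-Cre HSCs. Every MaeaCsf1r-Cre library was thus below every control library, which made *Mcl1* the only member whose groups did not overlap, beside 6.06% of all genes that lay lower and 2.49% that lay higher in this way. Its log2 fold change was -0.19 (SE 0.11, 95% confidence interval -0.44 to 0.06, limma adjusted p = 0.967), and 0.369 was the adjusted p with the replicate block. The difference was -0.20, -0.22 and -0.15 in the 3 same-numbered pairs. When each library was corrected for transcript length it shrank to -0.08, in a data set where log2 fold changes and transcript length were correlated across 12449 genes (Spearman's rho -0.314; genes are not independent replicates).

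*Bcl2* (chromosome 1, 106538178 to 106714274), the founding member of the family, was at 41.0, 53.6 and 79.9 CPM in control and at 24.0, 60.1 and 46.4 CPM in MaeaCsf1r-Cre HSCs. The groups overlapped, with replicate 2 higher and replicates 1 and 3 lower in the mutant. The means were 58.2 ± 19.8 and 43.5 ± 18.2 CPM (SD, n = 3), a log2 fold change of -0.45 (SE 0.35, interval -1.27 to 0.37, limma adjusted p = 0.967). It depended on single libraries, at -0.08 without MaeaCsf1r-Cre replicate 1, -0.20 without control replicate 3 and -0.73 without MaeaCsf1r-Cre replicate 2, and it was -0.26 after correction for transcript length. The adjusted p with the block was 0.354.

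*Bcl2l1* (chromosome 2, 152780668 to 152831728) encodes BCL-XL, best known for keeping erythroid cells and platelets alive. It was at 24.1, 31.7 and 42.6 CPM in control and 26.3, 40.6 and 39.5 CPM in MaeaCsf1r-Cre HSCs, and the groups overlapped. The interval of its log2 fold change of 0.12 (SE 0.25, limma adjusted p = 0.973) ran from -0.45 to 0.69, and the value turned to -0.08 without control replicate 1.

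**Figure D3:**
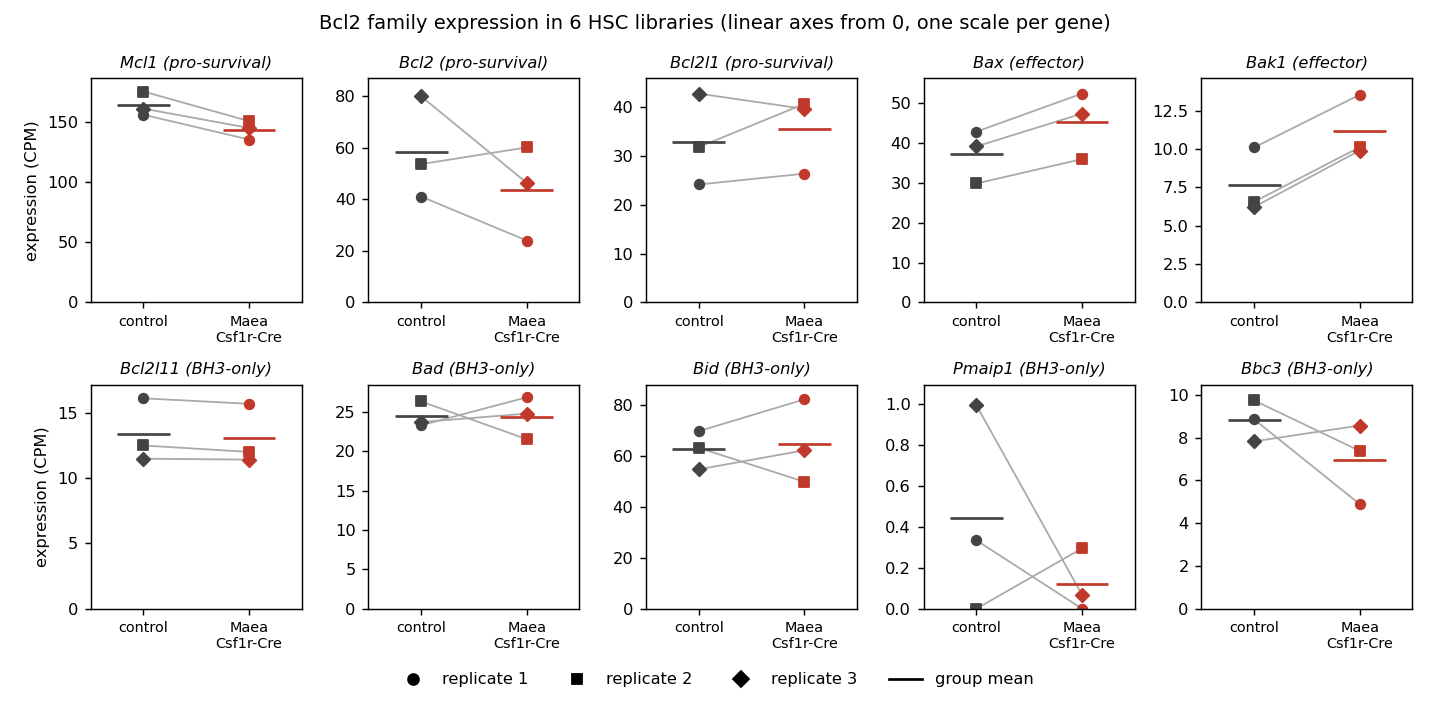
CPM of the 10 members in each library on linear axes that start at 0, 1 scale per gene, with control in grey, MaeaCsf1r-Cre in red, bars for group means and lines joining libraries with the same replicate number. The 3 lines of *Bax* and *Bak1* run upward and those of *Mcl1* and *Bcl2l11* downward, and only for *Mcl1* do the groups stay apart.

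Both effector genes lay higher in the MaeaCsf1r-Cre library of every same-numbered pair, a pattern that 13.2% of all genes tested shared. *Bax* (chromosome 7, 45461697 to 45466898) was at 42.7, 29.8 and 39.0 CPM in control and 52.3, 35.9 and 47.3 CPM in MaeaCsf1r-Cre HSCs. Its groups overlapped, since replicate 2 was the lowest library of both, but the 3 pairs differed by nearly the same amount, 0.28, 0.26 and 0.27 on the log2 scale. The log2 fold change was 0.27 (SE 0.20, interval -0.18 to 0.72, limma adjusted p = 0.967), with an adjusted p of 0.315 in the blocked fit. Without control replicate 2 it was 0.12, and without MaeaCsf1r-Cre replicate 2 it was 0.42.

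*Bak1* (chromosome 17, 27019810 to 27029009), whose product BAK sits in the outer mitochondrial membrane, showed the largest log2 fold change of the members. It was at 10.1, 6.56 and 6.22 CPM in control and at 13.5, 10.1 and 9.90 CPM in MaeaCsf1r-Cre HSCs. The groups overlapped by a single library, as control replicate 1 lay above MaeaCsf1r-Cre replicate 3. The means were 7.63 ± 2.15 and 11.2 ± 2.04 CPM (SD, n = 3), with a fitted ratio of 1.43 with an interval of 0.979 to 2.08 (log2 fold change 0.51, SE 0.23, limma adjusted p = 0.967). The blocked adjusted p of 0.266 also missed the threshold, and the pairs differed by 0.39, 0.56 and 0.59. Leaving out 1 library at a time gave 0.38 to 0.71.

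Of the 4 BH3-only genes that could be tested, *Bcl2l11*, *Bad* and *Bid* had log2 fold changes near 0. *Bcl2l11* (chromosome 2, 128126038 to 128162547), encoding BIM, which mediates the death of blood cells deprived of cytokines, was at 16.1, 12.5 and 11.5 CPM in control and 15.7, 12.0 and 11.4 CPM in MaeaCsf1r-Cre HSCs. Same-numbered libraries were nearly equal, with pair differences of -0.04, -0.05 and -0.01. All 3 lay below 0, as they did for 23.5% of all genes, yet the log2 fold change of -0.03 had an interval of -0.50 to 0.44 (SE 0.20, limma adjusted p = 0.989) and became 0.03 under median ratios, 0.08 under quantile normalization and 0.14 after correction for length.

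*Bad* (chromosome 19, 6941861 to 6951899), whose product is held inactive by growth factor signalling, averaged 24.5 ± 1.64 CPM in control and 24.4 ± 2.68 CPM in MaeaCsf1r-Cre HSCs (SD, n = 3). Its log2 fold change was -0.01 (SE 0.15, interval -0.35 to 0.34), and it turned to 0.05 under median ratios and 0.06 under quantile normalization. *Bid* (chromosome 6, 120891930 to 120916853), which links death receptors to mitochondria after cleavage by caspase 8, was at 69.6, 63.1 and 54.7 CPM in control and 82.1, 49.8 and 62.1 CPM in MaeaCsf1r-Cre HSCs. The mutant libraries held both the highest and the lowest value, and the log2 fold change of 0.03 had an interval of -0.42 to 0.48. It was -0.16 without MaeaCsf1r-Cre replicate 1 and 0.20 without MaeaCsf1r-Cre replicate 2.

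*Bbc3* (chromosome 7, 16308393 to 16318205) and *Pmaip1* encode PUMA and NOXA, both known targets of p53. *Bbc3* was at 8.86, 9.74 and 7.83 CPM in control and 4.89, 7.38 and 8.57 CPM in MaeaCsf1r-Cre HSCs. The 2 lowest libraries were mutant, but replicate 3 was higher in the mutant and the groups overlapped (log2 fold change -0.33, SE 0.23, interval -0.86 to 0.21, limma adjusted p = 0.967). Without MaeaCsf1r-Cre replicate 1 the value was -0.13. *Pmaip1* was at 0.334, 0 and 0.993 CPM in control and 0, 0.294 and 0.0677 CPM in MaeaCsf1r-Cre libraries, about 11, 0 and 34 reads against 0, 13 and 3 reads. A count of 0 allows up to 0.0757 CPM in control replicate 2 and 0.0492 CPM in MaeaCsf1r-Cre replicate 1, at 3 reads a library and for counting error only. With 0 in a library of each group, the level was too low for a comparison.

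Because family members act against each other, their transcript ratios within a library were compared as well, as descriptions with no test. Of the 6 ratios of a pro-survival to an effector gene, 5 were lower in the MaeaCsf1r-Cre library of all 3 pairs, and *Bcl2l1* over *Bax* was lower in 2 of them. Over all genes, 68.8% had a ratio to *Bax* and 89.2% a ratio to *Bak1* that was lower in all 3 pairs, so this count says nothing particular about the pro-survival genes. These ratios share their genes, so they are not separate pieces of evidence. The log2 ratio of *Mcl1* to *Bak1* was 3.95, 4.74 and 4.69 in control and 3.32, 3.89 and 3.87 in MaeaCsf1r-Cre HSCs, with no overlap. Since *Bak1* lay higher in the mutant, 29.8% of all genes had a ratio to *Bak1* that was lower without overlap. The log2 ratio of *Mcl1* to *Bax* was 2.15 ± 0.358 in control and 1.68 ± 0.354 in MaeaCsf1r-Cre HSCs (SD, n = 3), and that of *Bcl2* to *Bax* was 0.61 ± 0.584 and -0.14 ± 0.938, both with overlap.

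**Figure D4:**
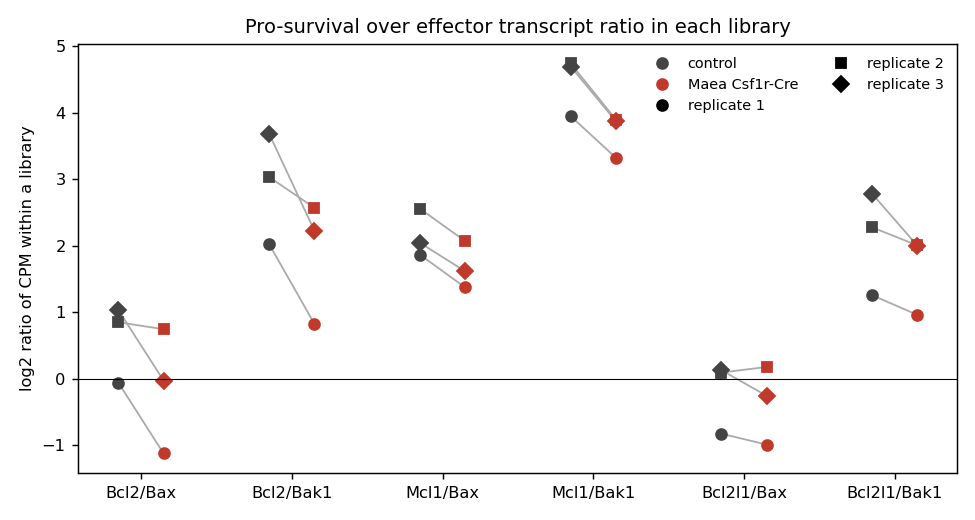
Log2 ratio of each pro-survival to each effector transcript, from CPM within a library, in control (grey) and MaeaCsf1r-Cre (red) HSCs, with lines joining libraries of the same replicate number. For 5 of the 6 ratios all 3 lines run downward from control to MaeaCsf1r-Cre, and the groups are apart only for *Mcl1* over *Bak1*, at 4.46 ± 0.444 against 3.69 ± 0.325.

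Among the pro-survival genes themselves, *Bcl2l1* and *Bcl2* were also compared. The log2 ratio of *Bcl2l1* to *Bcl2* was -0.77, -0.76 and -0.91 in control and 0.13, -0.57 and -0.23 in MaeaCsf1r-Cre HSCs. All mutant libraries were above all control libraries, and 2.24% of all genes had a ratio to *Bcl2* that was higher in this way. It was 1 of 2 ratios without overlap among the 9 computed, the other being *Mcl1* over *Bak1*. Summed per length, the pro-survival genes made up 40.7 ± 4.54% of the transcripts of the 10 members in control and 35.7 ± 6.63% in MaeaCsf1r-Cre HSCs, the effectors 29.7 ± 4.52% and 35.7 ± 3.79%, and the BH3-only genes 29.6 ± 2.71% and 28.6 ± 2.94% (SD, n = 3). All 3 shares overlapped between groups, although the pro-survival share was lower and the effector share higher in each of the 3 pairs. The shares are parts of 1 whole, so they are not separate pieces of evidence. The effector share rested mostly on *Bax*, at 47.5 CPM per kb against 3.94 for *Bak1*. How often other sets of genes show such a pattern was not tested.

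Members differed in how much of their variation followed the replicate number. The replicate number has more levels than the genotype and takes a larger share of random variation, so the 2 shares are not like measures. Of the variation of *Bcl2l11* over the 6 libraries, 99.0% lay between replicate numbers and 0.725% between genotypes, and for *Bcl2l1* the figures were 87.3% and 3.77%. *Bax* was split 72.4% to 27.6% with 0.0326% left over. *Mcl1* and *Bak1* had the largest shares between genotypes, 66.8% and 53.8%, whereas 92.5% of the variation of *Bad* followed neither. Among the 9 members tested, *Bcl2* varied most over the libraries, with a coefficient of variation of 37.0%, and *Mcl1* (8.94%) and *Bad* (8.14%) least. The 6 granulocyte markers summed to 302, 193 and 76.1 CPM in control and 164, 137 and 75.8 CPM in MaeaCsf1r-Cre replicates 1, 2 and 3. *Mpo* had the same order, at 181, 96.8 and 26.4 CPM and 90.4, 51.7 and 3.77 CPM, as did *Elane* and *Ctsg*. *Prtn3* did not, at 73.8, 86.6 and 48.9 CPM and 41.8, 72.6 and 71.5 CPM, and neither did *S100a8* and *S100a9*. The part of the granulocyte markers in the values of the members was not tested.

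Over the 6 libraries, which share genotype and replicate number as sources of variation, some members varied together and others in opposition. Pearson's r was -0.958 between *Bcl2l1* and *Bcl2l11*, -0.902 between *Bcl2* and *Bid*, -0.898 between *Mcl1* and *Bax* and -0.888 between *Mcl1* and *Bak1*. On the positive side it was 0.798 between *Mcl1* and *Bbc3*, 0.797 between *Bcl2l11* and *Bid*, 0.760 between *Bcl2* and *Bcl2l1* and 0.747 between *Bax* and *Bak1*. Among 9215 genes with a mean of at least 10 CPM, *Camkk2* (0.993), *Lrig2* (0.993) and *Rest* (0.988) were most like *Mcl1*, and *Slc35c1* (0.997), *Mtmr2* (0.996) and *Trip6* (0.984) most like *Bcl2*. With n = 6 and so many candidates, these values only describe the libraries.

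The rest of the apoptosis machinery was followed in 5 lists, in which 0 genes passed the adjusted threshold in limma, with or without the block, and 0 an unadjusted p of 0.05 without it. Without adjustment the blocked fit gave *Cflar*, *Casp2* and *Usp9x* as lower, against 10.8% of all genes, and no gene as higher, against 3.11% of all genes. Of 15 other Bcl2 family genes 8 could be tested, 3 with higher and 5 with lower values in MaeaCsf1r-Cre HSCs (median -0.01). *Bcl2l14* averaged 3.78 ± 0.585 and 2.56 ± 0.654 CPM (SD, n = 3; log2 fold change -0.43, SE 0.23). Its groups did not overlap, and 6.06% of all genes tested lay lower in this way. *Bnip3*, a BH3 protein of hypoxia and mitophagy, was at 32.4 ± 8.39 and 26.3 ± 4.90 CPM, and *Bmf*, a BH3-only gene, at 1.40 ± 0.562 and 0.891 ± 0.380 CPM. The 3 *Bcl2a1* copies, which are near identical and may share reads, and *Bik* and *Bcl2l15* were under the minimum level, and *Bcl2l10* and *Hrk* were listed at 0 in all libraries.

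All 12 genes of the apoptosome and caspase list were tested, 5 higher and 7 lower with a median of -0.01. *Casp2*, an initiator caspase, averaged 194 ± 24.7 CPM in control and 166 ± 22.6 CPM in MaeaCsf1r-Cre HSCs (log2 fold change -0.23, SE 0.15, limma adjusted p = 0.967 and 0.331 with the block). It was lower in 3 of 3 pairs, as were 23.5% of all genes. *Casp6* and *Dffb*, an executioner caspase and the nuclease that cuts DNA in apoptosis, had log2 fold changes of -0.17 and -0.12. The inhibitor of apoptosis proteins and their antagonists, 6 genes, had 2 higher and 4 lower with a median of -0.16. *Xiap*, which blocks caspases directly, was at 17.8, 18.1 and 18.0 CPM in control and at 10.8, 15.3 and 16.0 CPM in MaeaCsf1r-Cre HSCs. Its groups did not overlap (log2 fold change -0.35, SE 0.19, limma adjusted p = 0.967), and 6.06% of all genes tested lay lower in this way. The groups of *Birc3* (-0.33) and *Birc2* (-0.21) overlapped.

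The death receptor pathway had 2 genes higher and 8 lower among 10 tested of 12, with a median log2 fold change of -0.15. *Cflar*, whose product c-FLIP holds back caspase 8, was at 23.4, 32.8 and 29.6 CPM in control and 18.7, 25.2 and 20.4 CPM in MaeaCsf1r-Cre HSCs. It was lower in each pair, as were 23.5% of all genes, but the groups overlapped (log2 fold change -0.40, SE 0.19, limma adjusted p = 0.967 and 0.266 with the block). *Ripk1* had a value of -0.16 and *Traf2* of 0.16, and *Fasl* was listed at 0. Of the 11 partners and turnover genes, 5 were higher and 6 lower with a median of -0.06. Here *Usp9x*, the deubiquitinase that stabilises MCL1, averaged 112 ± 2.21 CPM in control and 92.9 ± 19.4 CPM in MaeaCsf1r-Cre HSCs (SD, n = 3; log2 fold change -0.29, SE 0.16, limma adjusted p = 0.967 and 0.355 with the block). The pairs differed by -0.0047, -0.56 and -0.30, so replicate 1 was nearly equal. All 3 lay below 0, as they did for 23.5% of all genes. *Btrc*, a ubiquitin ligase subunit, and *Ywhab*, a 14-3-3 protein of the kind that holds BAD, had values of -0.17 and -0.12.

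**Figure D5:**
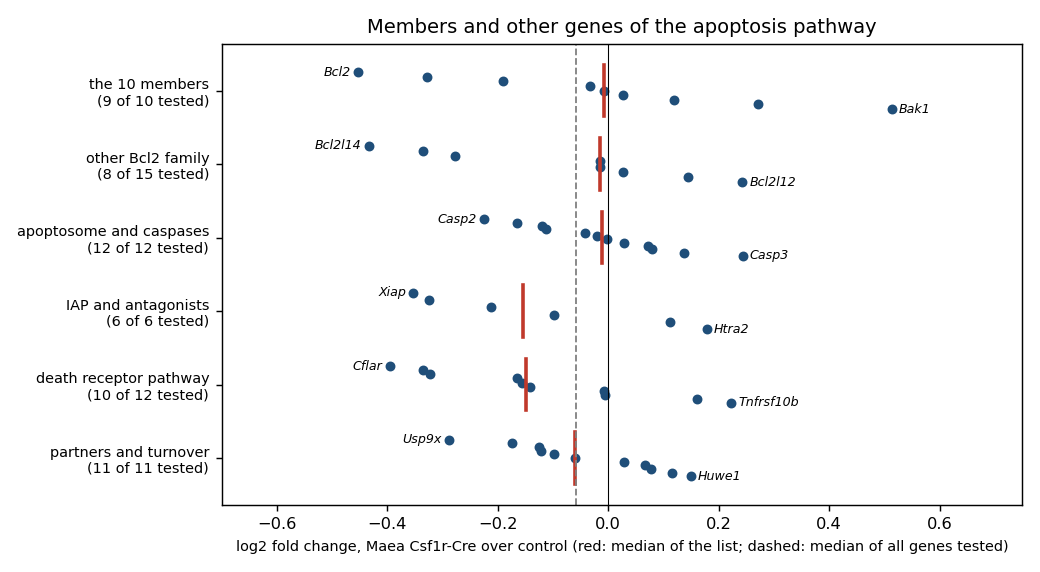
Log2 fold change of every tested gene, MaeaCsf1r-Cre over control, for the members and the 5 other lists, with the median of each list in red and that of all genes tested as a dashed line at -0.06. The members spread from *Bcl2* at -0.45 to *Bak1* at 0.51, and the medians of the inhibitor of apoptosis and death receptor lists are lowest at -0.16 and -0.15. None of these values is corrected for transcript length, with which log2 fold changes were correlated (Spearman's rho -0.314).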

How the data were processed

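HSC libraries of 3 control and 3 MaeaCsf1r-Cre replicates were analysed, grouped by their titles. The authors prepared libraries with the SMART-Seq v4 and Nextera XT kits. Single-end reads were mapped by them with STAR 2.5.3a on mm10, then quantified and normalised in Partek Flow, and the processing notes also name Trim Galore. The deposited values are CPM, with 0.0001 added by the authors to each value, which was removed. Between 75.2 and 80.2% of the scaled reads of a library fell on listed genes. Steps between low CPM values gave these totals, but only 73.2 to 75.4% of low values lay on whole reads (within 0.05), so no count test was used. Of the symbols, 27 had become dates and 4 entries shared a symbol.

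Genes with a CPM of at least 1 in 3 libraries were tested on log2(CPM + 1), a scale that understates changes of low genes, with limma 3.58.1 (R 4.3.3; moderated test with mean-variance trend, two-sided, Benjamini-Hochberg adjustment over 12955 genes, threshold 0.05). The fit was tested on simulated data with independent noise and no replicate effect. The planted changes were larger than that of any member, so the simulation does not show whether smaller changes could be found. Same-numbered libraries deviated together across genes (Pearson's r 0.627, 0.523 and 0.397), with numbers taken from the labels, so the fit was repeated with the number as a block. Lengths and positions came from GENCODE M21 (GRCm38), later than the authors' annotation, which matched 44027 entries, and promoters from RefSeq (GRCm38.p6).

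The members and the lists were chosen with earlier results of these data known. Named genes were all members, *Maea*, in each list the 3 genes with the smallest p, and the 3 genes most like *Mcl1* and *Bcl2*. Alternatives were no filter or one at 10 CPM, a pseudocount of 0.1, scaling by median ratios or quantiles, no trend, leaving out each library, and length correction by loess (span 0.5) alone and with the block. The values of 1 HSC marker are not reported here. The length used for levels was varied after seeing the data.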

Additional observations from a re-analysis of the deposited data

How the results depend on the processing

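No member passed the adjusted threshold under any of the alternatives, and the lowest adjusted p was 0.227 (*Bak1*, length correction with the block). The same held for the other pathway genes. Of 134 member values under alternatives, 118 kept their sign and 16 reversed. *Mcl1*, *Bcl2*, *Bax*, *Bak1* and *Bbc3* never reversed. *Bcl2l11* became 0.0258 under median ratios, 0.0831 under quantile normalization and 0.14 with length correction, with or without the block, and *Bad* became 0.0533, 0.0648 and 0.0648. With 1 library left out at a time, log2 fold changes ranged from -0.16 to 0.10 for *Bcl2l11*, from -0.0765 to 0.0763 for *Bad*, from -0.16 to 0.20 for *Bid* and from -0.0771 to 0.32 for *Bcl2l1*. The members' median moved from -0.01 to 0.0906 with length correction, with or without the block, while that of all genes moved from -0.06 to 0.03. The cause was not tested. Pairing libraries by replicate block kept the count over all genes at 1 with an adjusted p under 0.05 and changed no call of a member, and raised the count at an unadjusted p of 0.05 from 517 to 1805. The count over all genes was 0 with a filter at 10 CPM, where 9298 genes were tested, 16 with length correction and block together, and 0 to 3 with 1 library left out (0 without control replicate 2 or 3, 3 without MaeaCsf1r-Cre replicate 3). *Pmaip1*, with 0 reads in 1 library of each group, was under the minimum level and not tested.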
